A study of Mus musculus with 6 samples.

Results

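The nuclear-encoded genes of the mitochondrial respiratory chain, the ATP synthase, the mitochondrial ribosome and the protein import translocases are described here in RAW 264.7 cells, a mouse macrophage line, after stimulation with bacterial lipopolysaccharide (LPS). The genes were taken by symbol from the array's annotation: NADH dehydrogenase (Nduf), succinate dehydrogenase (Sdh), the cytochrome bc1 complex (Uqcr and Cyc1), cytochrome c (Cycs), cytochrome c oxidase (numbered Cox genes), ATP synthase (Atp5), mitochondrial ribosomal proteins (Mrpl and Mrps) and the Timm and Tomm translocases. The symbols were matched without any measured value, although the choice was made with earlier results of these data known. It gave 155 of 10698 annotated genes, on 177 of the 16281 probes. Of these genes, 143 had a probe measured on all 6 arrays and were tested, 11 were measured on some arrays only, and 1, Atp5a1, was at exactly 0 on every array and counted as not measured. No probe was annotated to a gene of mitochondrial DNA. Atp5k-ps1 and Ndufs5-ps, both tested, are pseudogenes in the RefSeq gene table, and a signal from their parent genes cannot be told apart from theirs. By symbol they are included in the counts and medians of the ATP synthase genes, the complex I subunits and the structural subunits below.

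Treated cells were exposed for 4 h to LPS at 100 ng/ml together with LPS-binding protein (LBP) at 100 pM, and untreated cells were cultured for the same 4 h without either. LBP is a serum protein that hands LPS to the receptor complex of macrophages. Total RNA of treated and untreated cells was hybridised together on 6 two-colour arrays, numbered as sets 1 to 3, with treated RNA in Cy5 on 3 arrays and in Cy3 on 3. The line is written RAW 264.4 in some of the labels. It is a single transformed line, and the labels do not say whether the sets are separate cultures. The p-values therefore reflect set-to-set spread, which may be technical, and no more. That spread is partly pooled over all features, so the SD given beside a p-value is not the whole spread behind it.

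The respiratory chain passes electrons from NADH and succinate through complexes I to IV to oxygen, and the ATP synthase, complex V, uses the resulting proton gradient. Most subunits are encoded in the nucleus and imported through the TOM and TIM translocases, while a small core is encoded in mitochondrial DNA and made by the mitochondrial ribosome. Activated macrophages are known for a shift towards glycolysis and for use of the chain as a source of reactive oxygen species.

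Each array had between 14195 and 15027 probes with a non-zero value and a deposited median of 0. Ratios were read as Cy5 over Cy3, since the labels call Cy5 the test channel, and were then turned so that a positive log2 ratio means higher in treated cells. The table itself does not state that direction, and the opposite convention would turn every sign given here. Under the reading used, all 12 genes of a list of known LPS-induced genes rose, by log2 changes between 1.99 and 4.36 (limma, adjusted p below 0.05 each). That list was chosen from known responders. None of 12 measured markers of other cell types passed the test, and 0 had an unadjusted p below 0.05 (limma). Ratios carry no levels, so the presence or absence of any cell type, or of macrophage markers themselves, could not be checked. Nor can a change in mitochondria per cell be told apart from a change in RNA per mitochondrion.

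Changes in these genes between treated and untreated cells were small. Of 143 genes tested, 10 rose and 10 fell (14.0% called), beside 29.0% of all 11364 features, of which 14.0% rose and 15.0% fell (limma, adjusted p below 0.05). The 20 called genes changed by 1.10- to 1.48-fold, and none of the 143 passed 1.5-fold, which 4.86% of all features did. The largest rise was in Mrpl52 and the largest fall in Mrps6, both mitochondrial ribosomal proteins, and 14 of the 20 called genes were ribosomal. None of the 59 tested structural subunits of complexes I to V and cytochrome c passed the main test. Sdhb did over the 6 arrays with a dye term (limma adjusted p = 0.0395), an alternative chosen after seeing the data. With the set number as a random replicate block 11 of the 143 genes rose and 15 fell (32.5% of features called). Subunits called under that or other alternatives are not listed here. The median log2 change of the 143 genes was -0.02, with quartiles of -0.07 and 0.04, against a median of 0.00079 and quartiles of -0.08 and 0.08 over all features. The spread between sets was 0.058 (median SD over the genes, n = 3 sets), against 0.074 over all features. The number of genes that rose rested on single sets: it was 3 without set 1, 5 without set 2 and 6 without set 3, while the number that fell was 8, 8 and 9. Over all features the share called was then 23.0%, 25.9% and 24.5%. Over the 6 arrays without set numbers 9 of the 20 calls held, and 21.7% of all features were called.

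**Figure D1:**
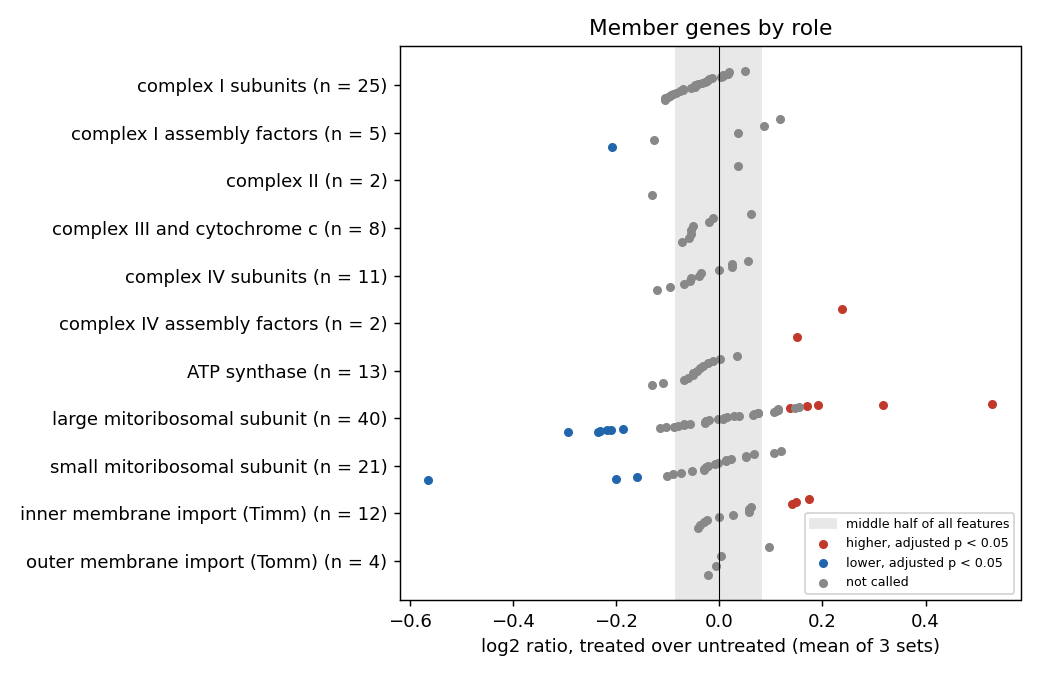
Mean log2 ratio of treated over untreated cells (horizontal axis, mean of 3 sets) for each of the 143 tested genes, 1 point per gene, grouped by role, with coloured points past the adjusted p threshold and the grey band marking the middle 50% of all features. The points of complexes I to V and cytochrome c lie between -0.13 and 0.062 with none coloured, and the ribosomal points spread from -0.56 to 0.53.

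Short stretches of promoter are given here for 5 of these genes: the largest rise (Mrpl52), the largest and second largest falls (Mrps6 and Mrpl43), cytochrome c, and Mrpl32, whose stretch holds several copies of one motif. Each is the 100 bases before the gene's start, read 5′ to 3′ on the gene's strand, from RefSeq promoters of GRCm38.p6. Mrpl52 lies at chr14:54426809-54426908 (+ strand), Mrps6 at chr16:92058236-92058335 (+ strand), Mrpl43 at chr19:45006443-45006542 (- strand), Cycs at chr6:50566570-50566669 (- strand) and Mrpl32 at chr13:14613038-14613137 (- strand). Capitals mark the ETS motif CCGGAAG, or its reverse complement, in Mrpl52 and Mrpl43, and the core of the NRF1 motif, GCGCATGC, in Cycs and Mrpl32. Nuclear respiratory factor 1 and the ETS factor GABP are known regulators of nuclear genes for mitochondrial proteins.
Mrpl52: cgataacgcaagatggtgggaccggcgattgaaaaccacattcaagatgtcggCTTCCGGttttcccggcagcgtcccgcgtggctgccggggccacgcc
Mrps6: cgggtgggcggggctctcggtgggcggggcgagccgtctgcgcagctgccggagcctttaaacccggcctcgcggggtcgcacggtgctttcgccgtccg
Mrpl43: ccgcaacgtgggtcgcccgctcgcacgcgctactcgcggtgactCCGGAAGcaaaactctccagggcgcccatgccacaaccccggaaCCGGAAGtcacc
Cycs: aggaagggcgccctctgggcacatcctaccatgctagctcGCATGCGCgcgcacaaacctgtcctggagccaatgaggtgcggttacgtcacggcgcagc
Mrpl32: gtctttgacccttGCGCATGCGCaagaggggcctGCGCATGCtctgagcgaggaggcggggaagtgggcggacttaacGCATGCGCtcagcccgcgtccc
The Mrpl52 stretch held 1 ETS match and that of Mrpl43 held 2, while the Mrps6 stretch held none of the 5 motifs searched. The Cycs stretch held 1 NRF1 core and that of Mrpl32 held 4, some of them overlapping.

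Over the whole promoter window, 250 bases before to 50 bases after the start, 135 of the 155 genes had 145 promoters in the table. The motifs searched, on both strands and with overlaps allowed, were the NRF1 core GCGCATGC, the ETS motif CCGGAAG, the YY1 motif AAGATGGCG, the interferon-response motif GAAANNGAA and the NF-kB motif GGACTTTCC. The NRF1 core was in 14.5% of these promoters, against 4.47% of the promoters of all tested genes and 2.71% of all 32851 promoters of the table. For the ETS motif the shares were 29.7%, 13.0% and 8.86%, and for the YY1 motif they were 6.90%, 2.09% and 1.40%. The interferon-response motif was in 8.97% of these promoters, against 7.40% of those of tested genes and 8.56% of all, and the NF-kB motif in 0.690%, against 0.426% and 0.344%. Among the genes that rose, 5 of 9 promoters held the ETS motif and 0 the NRF1 core. Among the genes that fell, 4 of 9 held the ETS motif, 1 the YY1 motif and 0 the NRF1 core. Of the 117 promoters of tested but uncalled genes, 31 held the ETS motif and 20 the NRF1 core. These matches describe letters in a window, not binding.

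Complex I, the NADH dehydrogenase, had 25 tested subunits, and 0 passed the test, with 0 at an unadjusted p below 0.05 (limma). Their log2 changes ran from -0.11 to 0.05 around a median of -0.05. The most changed were Ndufb2 at -0.11 ± 0.069 (SD, n = 3 sets; limma adjusted p = 0.141) and Ndufc2 at -0.10 ± 0.073 (adjusted p = 0.148). Ndufab1, the mitochondrial acyl carrier protein, had 4 probes with log2 changes from -0.08 to 0.03.

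Of the 5 complex I assembly factors tested, 1 was called. Ndufaf7, a methyltransferase that modifies a complex I subunit during assembly, fell by 0.21 on the log2 scale (SD 0.056, n = 3 sets; limma adjusted p = 0.0107). Its arrays disagreed with each other: they read -0.08, -0.79 and -0.33 in sets 1 to 3 with treated RNA in Cy5, and -0.24, 0.41 and -0.21 with treated RNA in Cy3. The large opposite readings of set 2 cancelled in that set's mean, and over the 6 arrays without set numbers the call was lost (limma adjusted p = 0.375). Ndufaf3 read -0.13 ± 0.047 (adjusted p = 0.0678) and Ndufaf4 0.12 ± 0.067 (adjusted p = 0.104), both SD over n = 3 sets, by limma.

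Complex II, succinate dehydrogenase, was represented by its iron-sulfur subunit Sdhb and its membrane anchor Sdhc. Sdhb was below 0 on all 6 arrays, at -0.14, -0.29 and -0.15 with treated RNA in Cy5 and -0.08, -0.03 and -0.08 with treated RNA in Cy3. Its mean of -0.13 ± 0.029 (SD, n = 3 sets) missed the threshold (limma adjusted p = 0.0562), which it passed over the 6 arrays with a dye term (limma adjusted p = 0.0395). Sdhc read 0.22, 0.27 and 0.14 with treated RNA in Cy5 and -0.04, -0.25 and -0.13 with treated RNA in Cy3, so the orientations had opposite signs. Its mean of 0.04 ± 0.047 (SD, n = 3 sets) was smaller than that spread between arrays (limma adjusted p = 0.605).

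None of the 8 genes of complex III and cytochrome c passed the test, and 0 had an unadjusted p below 0.05 (limma). They ranged from -0.07 to 0.06. Cycs, the electron carrier between complexes III and IV and a trigger of apoptosis once released, read 0.06 ± 0.093 (SD, n = 3 sets; limma adjusted p = 0.425). Cyc1, the cytochrome c1 subunit, had the lowest value, -0.07 ± 0.086 (adjusted p = 0.327), and the Rieske iron-sulfur subunit Uqcrfs1 read -0.06 ± 0.060 (adjusted p = 0.403), both SD over n = 3 sets, by limma.

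The 11 tested subunits of complex IV, cytochrome c oxidase, lay between -0.12 and 0.055, and none passed the test. Cox6a2, the isoform of heart and skeletal muscle, was lowest at -0.12 ± 0.058 (SD, n = 3 sets; limma adjusted p = 0.0872). Cox7a2l, which helps join complexes III and IV into supercomplexes, was below 0 on all 6 arrays with a mean of -0.10 ± 0.025 (SD, n = 3 sets; limma adjusted p = 0.136). Ndufa4, counted here with complex IV, to which it has been assigned in human cells in spite of its name, read -0.07 ± 0.020 (adjusted p = 0.274) by limma over n = 3 sets. The liver-type subunit Cox7a2 and its muscle counterpart Cox7a1 read 0.02 ± 0.066 and -0.04 ± 0.063 (SD, n = 3 sets each).

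Cox17 and Cox16, the 2 complex IV assembly genes with a Cox symbol, rose; those without one are given with the further assembly factors. Cox17, the copper chaperone of the intermembrane space, was above 0 on every array, at 0.17, 0.15 and 0.29 with treated RNA in Cy5 and 0.11, 0.33 and 0.36 with treated RNA in Cy3. Its mean log2 change was 0.24 ± 0.092 (SD, n = 3 sets), a 1.18-fold rise (limma adjusted p = 0.00989). Cox16, an assembly factor, rose by 0.15 ± 0.066 (SD, n = 3 sets; limma adjusted p = 0.0456). Its readings were 0.16, -0.05 and 0.00 with treated RNA in Cy5 against 0.29, 0.24 and 0.26 with treated RNA in Cy3. The Cox16 call was lost without any 1 of the sets, with a limma adjusted p of 0.267 without set 1, 0.0545 without set 2 and 0.0941 without set 3, and over the 6 arrays without set numbers (0.134).

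Of the 13 ATP synthase genes tested, 0 passed the test, and 2 had an unadjusted p below 0.05 (limma). Atp5c1, the gamma subunit of the rotor stalk, was below 0 on all 6 arrays, and its mean was -0.13 ± 0.067 (SD, n = 3 sets; limma adjusted p = 0.0736). The small membrane subunit Atp5md read -0.11 ± 0.051 (adjusted p = 0.112), and the catalytic beta subunit Atp5b read 0.0013 ± 0.039 (adjusted p = 0.986), both by limma over n = 3 sets. Atp5g1, a gene for the c subunit of the rotor ring, had its orientations on opposite sides of 0. It read -0.13, -0.39 and -0.31 with treated RNA in Cy5 and 0.12, 0.59 and 0.34 with treated RNA in Cy3, for a mean of 0.03 ± 0.054 (SD, n = 3 sets).

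Over all 59 structural subunits, 45 had a mean below 0 and 14 above 0, around a median log2 change of -0.05. That direction depended on the labelling: the median was -0.12 with treated RNA in Cy5 and 0.05 with treated RNA in Cy3. The 95% intervals of the 59 changes ran at their widest from -0.24 (Atp5c1) to 0.18 (Cycs), which is 1.18-fold lower to 1.13-fold higher in treated cells. Changes larger than that lay outside every one of these intervals, on the scale of the deposited ratios. Each interval is for 1 gene alone, not for the 59 together, and rests on 3 set means whose dye-swap pairing is an assumption. Opposite readings cancel in such a mean, as for Ndufa3 in set 2 (-0.87 with treated RNA in Cy5 and 0.56 with treated RNA in Cy3).

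The mitochondrial ribosome held 14 of the 20 called genes. Of 61 tested genes 5 rose and 9 fell, 23.0% in all, beside 29.0% of all features, and the median log2 change was -0.0021. In the large subunit 5 of 40 rose and 6 fell, and in the small subunit 0 of 21 rose and 3 fell.

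Mrpl52, a protein of the large subunit, had the largest rise of all 143 genes. It read 0.23, 0.13 and 0.35 with treated RNA in Cy5 and 0.79, 0.99 and 0.69 with treated RNA in Cy3. Every array showed a rise, but the readings of the second orientation were all higher than those of the first. The mean was 0.53 ± 0.026 (SD, n = 3 sets), a 1.44-fold rise (limma adjusted p = 8.18e-05). Mrpl30 rose 1.25-fold, with a mean log2 change of 0.32 ± 0.063 (SD, n = 3 sets; limma adjusted p = 0.00163). It read 0.15, -0.16 and 0.09 with treated RNA in Cy5 and 0.60, 0.82 and 0.41 with treated RNA in Cy3, so the rise was carried by the arrays with treated RNA in Cy3. Mrpl24, by its probe measured on all 6 arrays, was above 0 on every array and rose by 0.19 ± 0.015 (SD, n = 3 sets; limma adjusted p = 0.0112). Its other probe was measured in sets 2 and 3 only and was not in the test. It read -0.03 and -0.02 with treated RNA in Cy5 and 0.36 and 0.28 with treated RNA in Cy3. Mrpl1, the relative of a bacterial ribosomal stalk protein, rose by 0.17 ± 0.077 (adjusted p = 0.0320), and Mrpl13 by 0.14 ± 0.033 (adjusted p = 0.0473), by limma over n = 3 sets. The 2 probes of Mrpl1 gave 0.24 and 0.10. In set 2 the first of them read -0.59 with treated RNA in Cy5 and 0.85 with treated RNA in Cy3. Mrpl13 read -0.07, -0.26 and 0.01 with treated RNA in Cy5 and 0.33, 0.47 and 0.34 with treated RNA in Cy3. Of these calls, 3 did not hold without 1 set: Mrpl24 without set 1 (limma adjusted p = 0.0587), Mrpl1 without set 1 (0.207) or set 3 (0.0736), and Mrpl13 without any of them (0.113 to 0.158). Over the 6 arrays without set numbers the calls of Mrpl30 (limma adjusted p = 0.115), Mrpl1 (0.244) and Mrpl13 (0.466) were lost.

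Mrps6, a protein of the small subunit related to bacterial S6, had the largest fall. It read -0.70, -0.77 and -0.53 with treated RNA in Cy5 and -0.65, -0.39 and -0.34 with treated RNA in Cy3. All 6 arrays were well below 0 and the orientations overlapped. The mean was -0.56 ± 0.12 (SD, n = 3 sets), 1.48-fold lower in treated cells (limma adjusted p = 2.43e-04). Mrpl43 gave readings of -0.27, -0.28 and -0.26 with treated RNA in Cy5 and -0.33, -0.37 and -0.26 with treated RNA in Cy3, and fell by 0.29 on the log2 scale (SD 0.033, n = 3 sets; limma adjusted p = 0.0017). Mrps6 and Mrpl43 were the 2 genes called in each orientation alone.

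Mrpl12, which in human cells also binds the mitochondrial RNA polymerase, fell by 0.24 (SD 0.054, n = 3 sets; limma adjusted p = 0.00588). Its 2 probes gave -0.24 and -0.23. It was below 0 on every array, at -0.46, -0.47 and -0.29 with treated RNA in Cy5 but only -0.08, -0.06 and -0.06 with treated RNA in Cy3. Mrpl34 fell by 0.23 (adjusted p = 0.00622), Mrpl18, which belongs to the protein family that binds 5S RNA, by 0.22 (adjusted p = 0.0129) and Mrpl42 by 0.21 (adjusted p = 0.00926), by limma over n = 3 sets. Mrps34 was below 0 on every array and fell by 0.20 (SD 0.042, n = 3 sets; limma adjusted p = 0.0112). Mrpl47 fell by 0.19 (adjusted p = 0.0347) and Mrps12, a protein of the decoding region, by 0.16 (adjusted p = 0.0384), by limma over n = 3 sets. Their calls were lost without set 1 (adjusted p = 0.0732 for Mrpl47 and 0.163 for Mrps12) or set 2 (0.192 and 0.172), and that of Mrpl18 without set 3 (0.0638). Over the 6 arrays without set numbers the calls of Mrpl12 (limma adjusted p = 0.0569), Mrpl18 (0.0504), Mrpl47 (0.0829) and Mrps12 (0.162) were lost. Among uncalled ribosomal genes Mrpl54, at 0.16 ± 0.095 (SD, n = 3 sets; limma adjusted p = 0.056), and Mrpl32, at 0.15 ± 0.085 (adjusted p = 0.0591), were nearest the threshold from above 0.

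**Figure D2:**
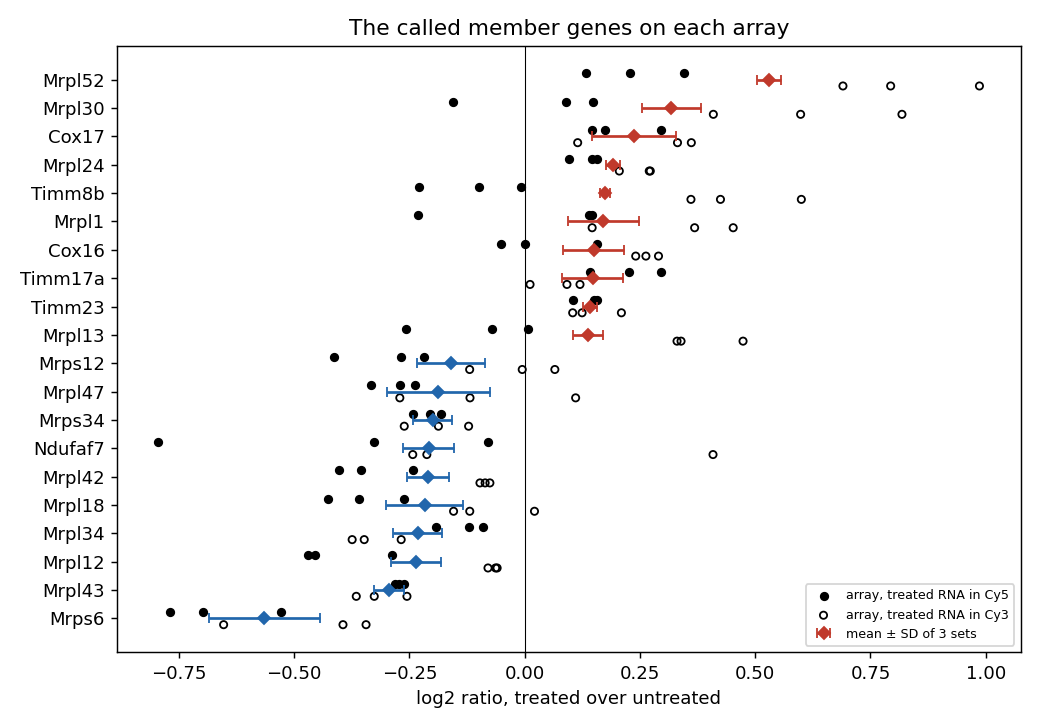
Log2 ratio of treated over untreated cells (horizontal axis) for the 20 called genes on each array, filled circles for treated RNA in Cy5 and open circles for treated RNA in Cy3, with the mean and SD of the 3 sets as diamonds and bars. For Mrps6 and Mrpl43 both kinds of circle lie together below 0, whereas for Timm8b and Mrpl13 the filled and open circles lie apart, on either side of 0 except 1 reading of Mrpl13.

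The proteins of the cytosolic ribosome, a comparison list, had 33 of 70 annotated genes tested. Of the 33, 3 rose and 0 fell (9.09%, beside 29.0% of all features), with a median log2 change of 0.05. The 3 that rose were Rps20 at 0.27 ± 0.17 (adjusted p = 0.0205), Rpl30 at 0.20 ± 0.080 (adjusted p = 0.0189) and Rpl7l1, a paralogue of Rpl7, at 0.14 ± 0.043 (adjusted p = 0.0481), SD over n = 3 sets, by limma. Rpl7l1 was above 0 on 3 arrays and below 0 on 3. The median of the 33 genes was -0.06 with treated RNA in Cy5 and 0.11 with treated RNA in Cy3. All 6 arrays had the same sign for 1 of them.

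Of the inner-membrane translocases 3 of 12 tested Timm genes rose (25%, beside 14.0% of all features) and 0 fell, while 0 of 4 Tomm genes passed the test (limma, with 0 at an unadjusted p below 0.05). Timm23, the channel of the presequence translocase, was above 0 on all 6 arrays, at 0.16, 0.15 and 0.10 with treated RNA in Cy5 and 0.12, 0.10 and 0.21 with treated RNA in Cy3. Its mean was 0.14 ± 0.015 (SD, n = 3 sets; limma adjusted p = 0.0384). Timm17a, its partner subunit in the same channel, was also above 0 on every array and rose by 0.15 ± 0.066 (SD, n = 3 sets; limma adjusted p = 0.0475). Timm8b, a small chaperone of the intermembrane space, rose by 0.17 ± 0.011 (SD, n = 3 sets; limma adjusted p = 0.0164), but its arrays split by orientation. They read -0.10, -0.23 and -0.01 with treated RNA in Cy5 and 0.42, 0.60 and 0.36 with treated RNA in Cy3, and its 2 probes gave 0.099 and 0.25. No call of these 3 genes held without each set in turn: the limma adjusted p was 0.0921 to 0.150 for Timm23, 0.0590 to 0.146 for Timm17a, and 0.0618 and 0.0681 for Timm8b without sets 1 and 2. Over the 6 arrays without set numbers Timm23 held (adjusted p = 0.0402) and Timm17a (0.0768) and Timm8b (0.396) did not, by limma. Of the uncalled genes the motor scaffold Timm44 read -0.04 ± 0.018 (adjusted p = 0.527), the pore Tomm40 0.0041 ± 0.019 (adjusted p = 0.956) and the receptor Tomm70a 0.10 ± 0.041 (adjusted p = 0.15), SD over n = 3 sets, by limma.

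The 11 genes measured on some arrays only included several core subunits. Of these, 5 had values in both orientations for at least 2 sets, and 0 of them were called when tested on those sets, where limma estimates the change from the sets that remain. Cox4i1, the ubiquitous subunit 4 isoform, read -0.05 (adjusted p = 0.577), Tomm20, the main presequence receptor, -0.02 (adjusted p = 0.873), Tomm6 0.01 (adjusted p = 0.919) and Ndufc1 -0.01 (adjusted p = 0.884), by limma. Atp5j, a peripheral stalk subunit, read -0.06 (limma adjusted p = 0.332) over 2 probes that behaved differently. One gave -2.64 and -2.88 with treated RNA in Cy5 and 2.50, 2.79 and 1.77 with treated RNA in Cy3, large readings that cancelled to -0.07 and -0.04 in the sets with both. The other 6 genes had 1 set or less: Cox5a (-0.05), Cox6a1 (0.06), Cox8a (0.04), Tomm20l (-0.07), Mrpl4 (-0.28, the mean of -0.89 and 0.33 in opposite orientations) and Atp5o (-0.15 on 1 array). These have no test.

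Dye orientation moved with these values. Across the 143 genes, arrays of the same orientation correlated at 0.53 to 0.71 (Pearson, 6 pairs) and arrays of opposite orientation at -0.42 to 0.15 (9 pairs), after turning all to treated over untreated. Over all features the same pairs gave 0.74 to 0.84 and 0.40 to 0.78. These are correlations across genes, which are not independent replicates, and arrays of 1 orientation share their labelling. The mean with treated RNA in Cy5 and that with treated RNA in Cy3 had opposite signs for 92 of the 143 genes (64.3%), against 49.3% of all features. The first was below the second for 103 of them (72.0%), against 49.5% of all features. Their medians were -0.09 and 0.06, against 0.0089 and -0.02 over all features. The split was not particular to these genes. Of the 33 cytosolic ribosomal protein genes, 28 (84.8%) had opposite signs, and 24 (72.7%) had the first mean below the second. All 6 arrays had the same sign for 24 of the 143 genes (16.8%), against 25.7% of all features. Among called genes they did so for 11 of 20, a smaller share than the 2523 of 3294 called features. The dye effect itself, tested on the 3 set values, passed for 0 genes and 0 features, with 53 and 2630 at an unadjusted p below 0.05 (limma). Over the 6 arrays with a dye term it passed for 12 of the 143 genes (8.39%), 9 of them brighter in Cy3, and for 4.88% of all features. The part of dye in each gene's treatment value was not tested beyond the averaging of both orientations.

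**Figure D3:**
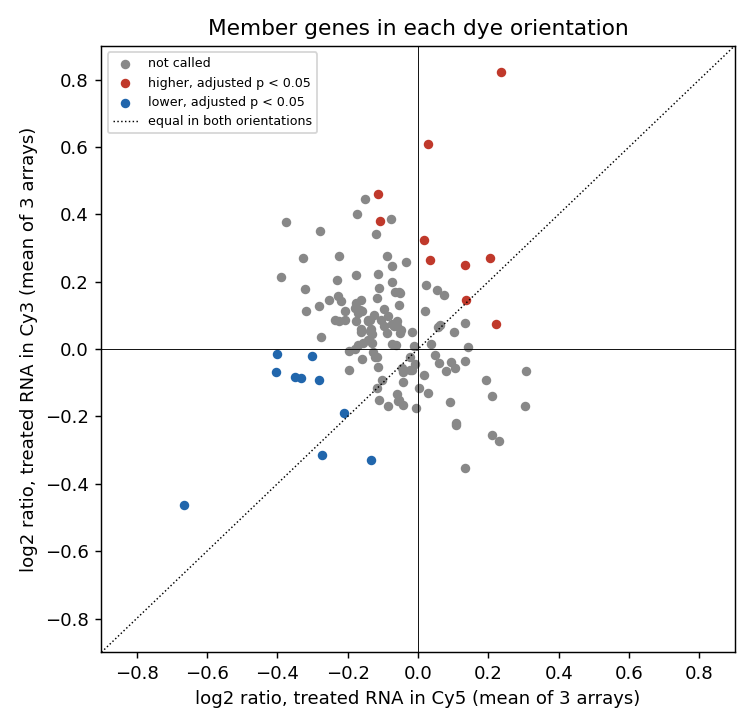
Mean log2 ratio of treated over untreated cells in the 3 arrays with treated RNA in Cy5 (horizontal axis) and in the 3 with treated RNA in Cy3 (vertical axis), 1 point per tested gene. Most points, 92 of 143, lie in the quadrants where the orientations have opposite signs, and Mrps6 lies far down the dotted line of equality.

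Genes that act on the same complexes but were not picked by symbol were described from 8 lists of mitochondrial functions, of which 9 of 94 tested genes rose and 21 fell (31.9% called, beside 29.0% of all features). Of 19 further assembly factors 0 rose and 4 fell. The 4 were Bcs1l, which inserts the Rieske protein into complex III, at -0.28 ± 0.060 (adjusted p = 0.0027), Higd2a at -0.25 ± 0.036 (adjusted p = 0.00409), the protease Oma1 at -0.24 ± 0.039 (adjusted p = 0.00472) and Coa3, SD over n = 3 sets, by limma.

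Genes of mitochondrial DNA maintenance and transcription were split, with 2 of 8 higher and 2 lower. The transcription factor Tfb2m rose by 0.19 ± 0.107 (adjusted p = 0.0305) and the single-strand binding protein Ssbp1 by 0.18 ± 0.097 (adjusted p = 0.0325), SD over n = 3 sets, by limma. The replicative polymerase Polg fell by 0.24 (adjusted p = 0.00541) and the exonuclease Mgme1 by 0.18 (adjusted p = 0.0155). Among factors of mitochondrial translation 2 of 12 rose and 4 fell. Ptcd1, an RNA-binding protein, rose by 0.32 ± 0.079 (adjusted p = 0.00188) and Fars2, the phenylalanyl-tRNA synthetase, by 0.28 ± 0.041 (adjusted p = 0.0023), while Ptcd2, another RNA-binding protein of the same family, fell by 0.40 (adjusted p = 4.38e-04), by limma over n = 3 sets.

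Among regulators of mitochondrial biogenesis 2 of 9 rose and 4 fell. Myc, a growth regulator, rose by far the most, by 3.00 ± 0.36 on the log2 scale (SD, n = 3 sets; limma adjusted p = 2.25e-06). Gabpa, the DNA-binding subunit of GABP, rose by 0.20 ± 0.020 (adjusted p = 0.00861), and Nrf1 fell by 0.23 (SD 0.081, adjusted p = 0.00999), by limma over n = 3 sets. The deacetylases Sirt1 and Sirt3 fell by 0.38 (adjusted p = 8.05e-04) and 0.29 (adjusted p = 0.00228), and Yy1 also fell.

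Of carriers and related genes 2 of 13 rose and 3 fell. Sod2, the superoxide dismutase of the matrix and a known NF-kB target, rose by 0.78 ± 0.14 (adjusted p = 6.90e-05) and the ATP-Mg/phosphate carrier Slc25a25 by 0.44 ± 0.097 (adjusted p = 5.65e-04), SD over n = 3 sets, by limma. The dicarboxylate carrier Slc25a10 fell by 0.44 (SD 0.098, n = 3 sets; limma adjusted p = 5.55e-04), and the ADP/ATP carrier Slc25a4 by 0.14 (adjusted p = 0.0413). In the remaining lists, 0 of 17 import genes outside the Timm and Tomm families rose and 2 fell, 1 of 10 chaperones and proteases rose and 1 fell, and 0 of 6 genes of fusion, fission and mitophagy rose and 1 fell. Gfer, which oxidises imported intermembrane-space proteins, was among the fallers (-0.18 ± 0.081, SD, n = 3 sets; limma adjusted p = 0.0264).

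**Figure D4:**
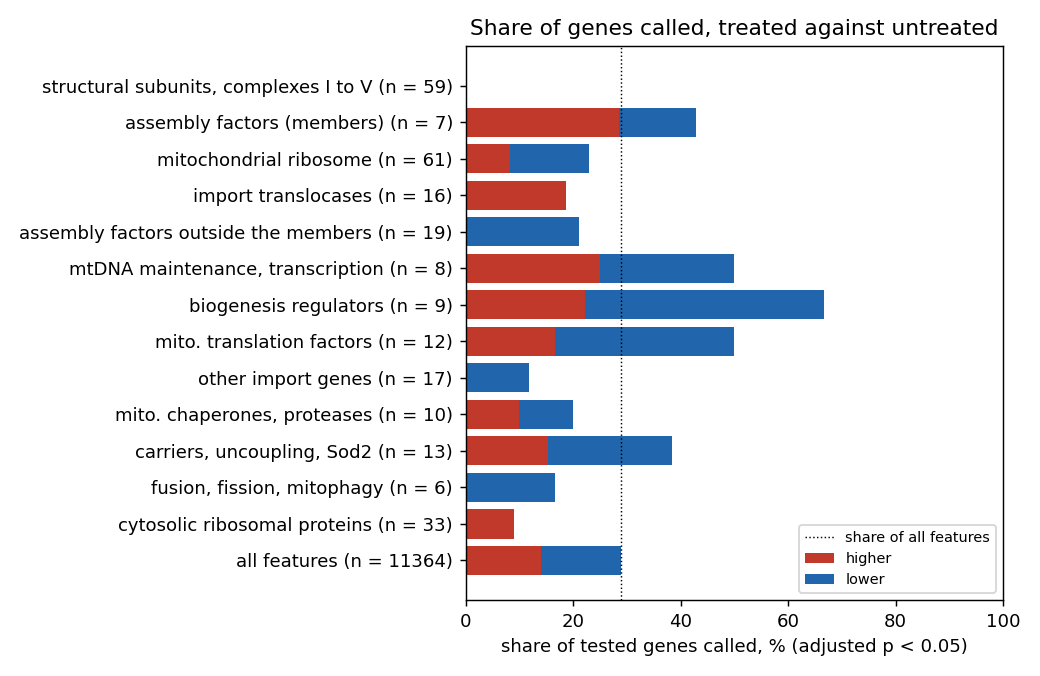
Share of tested genes that rose (red) and fell (blue) in treated cells, in percent of each list, with the number tested in brackets and the dotted line at the 29.0% of all features called. The bar of the 59 structural subunits is empty, those of the mitochondrial ribosome (23.0%) and import translocases (18.75%) end left of the line, and those of the smaller lists range widely.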

How the data were processed

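The authors deposited 1 log2 ratio per probe and array. For scanner, background correction, normalization and genome build the entry is: not given in the sources used here. How far dim spots were compressed is therefore unknown. The log base was taken from the maximum, 6.643856, the log2 of 100. Exact zeros (1254 to 2086 per array) were treated as not measured. Of 16281 probes 13738 had 1 gene symbol, 52 several and 2491 none. All 155 genes matched the RefSeq table (GRCm38.p6) by Entrez ID, with 0 symbols changed. Of probes measured on all 6 arrays, those with 1 symbol were averaged per gene, and the others were kept as single features. This gave 11364 features, 9574 of them single-symbol genes, from 13415 probes.

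Each set's arrays of both dye orientations were averaged after turning the sign where treated RNA was in Cy3. That both arrays of a set form a dye swap is an assumption, since the labels do not say that they share RNA. Set means (n = 3) were compared with 0 by limma 3.58.1 (lmFit and eBayes, two-sided) in R 4.3.3, with Benjamini-Hochberg adjustment over all features and a threshold of 0.05. The number of arrays limits the precision. The fit was tested on simulated data, with 3 independent normal values per feature and variances drawn from limma's fitted prior. That simulation held no dye effect and no array pairing, so it cannot speak to either. Promoters and figures used Python 3.11.15.

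The genes and lists were chosen with earlier results of these data known. The text names the 10 largest called rises and falls, per role up to 3 called and 2 uncalled genes of largest change, a fixed set of core subunits, and up to 3 called genes per direction and comparison list. Coa3, Yy1, Ndufab1, Atp5k-ps1, Ndufs5-ps and neighbouring genes were named after their values were seen. Alternatives covered scaling, orientation, blocks, sets left out, zeros, probes and thresholds.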

Additional observations from a re-analysis of the deposited data

How the results depend on the processing

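Of the 143 genes, 10 rose and 10 fell. Scaling arrays to a common spread gave 6 and 9 (26.0% of features called, against 29.0%), and keeping exact zeros as values gave 5 and 8 (23.5% of features). With each set left out in turn 3 to 6 rose and 8 to 9 fell (23.0% to 25.9% of features), and 10 of the 20 calls held without each set. At an adjusted p below 0.01, 3 rose and 5 fell (1064 and 1063 features), and against a 1.5-fold change 0 and 0 did (261 and 35 features), where limma's main test at 0.05 gave 1586 and 1708 features and 35 of the genes had an unadjusted p below 0.05. The arrays with treated RNA in Cy5 alone gave 1 and 7 (931 and 894 features, median change -0.087), and those with treated RNA in Cy3 alone 12 and 5 (1303 and 1079 features, median 0.059). With treated RNA in Cy5 alone the called genes Mrpl13 and Timm8b turned to -0.11 each (limma adjusted p = 0.367 and 0.315). Among genes whose 6 arrays had 1 sign the median was -0.096, with 7 higher and 13 lower of 24 (83.3%), beside a median of -0.094 and 96.5% called over features with that property. That filter picks genes by the same values that are then tested, so these calls are no separate evidence of a change. Single probes gave 7 and 12 of 161 (11.8%), beside 1891 and 1956 of all 13415 probes measured on all 6 arrays (28.7%). The causes were not tested.

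Over the 6 arrays with no replicate block 4 rose and 5 fell (21.7% of features), with a dye term and the set number as a fixed replicate block 3 and 7 (21.5%), and with a random replicate block 11 and 15 (32.5%). A dye term with no replicate block, an alternative chosen after seeing the data, gave 8 and 11 (27.7%), and the dye effect then passed for 12 genes, against 0 on set values. After turning to treated over untreated, deviations of same-numbered arrays from their orientation means correlated at -0.51 to -0.02. Differently numbered arrays of opposite orientation correlated at -0.12 to 0.53. As deposited, before turning, these correlations have the opposite sign. The random block used a consensus correlation of -0.51. The numbers were thus not shown to pair the arrays. Arrays of a set that deviate in opposite directions offset each other in the set mean. The SD of set means can then be smaller than the spread between arrays, as for Timm8b. The p-values of the main test rest in part on that SD. Over single named genes, 737 results kept direction and side of the threshold, 122 lost and 17 gained the call, and 25 turned sign, 21 of them in 1 orientation alone. Beside the 2 called genes, with treated RNA in Cy5 alone the sign turned for Atp5b (-0.073), Atp5g1 (-0.28), Atp5g2 (0.091), Atp5md (0.13), Cox5b (0.0039), Cox7a2 (-0.23), Cox8b (-0.11), Cycs (-0.074), Mrpl32 (-0.15), Mrpl54 (-0.077), Timm10b (-0.051), Tomm40 (-0.061), Tomm70a (-0.087), Uqcrc1 (0.11) and Uqcrfs1 (0.11). With treated RNA in Cy3 alone it turned for Cox6a2 (0.035), Cox7a1 (0.16), Mrps24 (-0.066) and Sdhc (-0.14). With each set left out in turn it turned once each for Tomm40 (-0.0067 to 0.010), Atp5b (-0.018 to 0.020), Cox7a2 (-0.0057 to 0.060) and Tomm34 (-0.054 to 0.011). None of these 23 values passed the test.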

Other observations

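Genes next to the called ones were listed after the values were seen, from the order of protein-coding genes in the RefSeq table (GRCm38.p6). Of the 20 called genes 15 had a measured neighbour, 21 pairs in all, and in 7 pairs (33.3%) the neighbour was called in the same direction, against 22.5% of the 2668 pairs of all called genes. No test was made of that difference. Mitd1, beside Mrpl30 and known for a role in cell division, rose by 1.10 ± 0.088 on the log2 scale (SD, n = 3 sets; limma adjusted p = 4.47e-06), more than Mrpl30 itself (0.32). Slc5a3, a myo-inositol transporter that overlaps Mrps6 in the table, fell by 0.39 (SD 0.20, n = 3 sets; limma adjusted p = 0.00655), so signals of this pair may not be separable. Abhd8, beside Mrpl34, fell by 0.33 (SD 0.038, n = 3 sets; limma adjusted p = 9.34e-04), and Slc25a10 lies beside Mrpl12. Mtbp, beside Mrpl13, fell by 0.26 (limma adjusted p = 0.00354) while Mrpl13 rose by 0.14.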
